A study of Mus musculus with 90 samples.

Results

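Mouse bone marrow-derived macrophages transduced with the human IRF8 construct hIRF8379-389 were compared with macrophages labelled mock after 4 days of differentiation towards osteoclasts. The comparison uses the 3 hIRF8379-389 libraries and the 3 mock libraries of day 4, which is 6 of the 90 RNA-seq libraries of the series, chosen by their titles and all carrying the same prefix in the column names of the deposited table. The series followed transduced and untransduced mouse macrophages on the way to osteoclasts and, in separate cultures, macrophages treated with interferon gamma and LPS. Cells were kept in macrophage colony-stimulating factor (MCSF) at day 0 and in MCSF with RANKL, the ligand that starts osteoclast differentiation, at days 4 and 8. The construct groups all started from Irf8-/- macrophages, which lack normal mouse Irf8. The mock group is named by its genotype label alone, and the labels say neither which mice it came from nor whether it carried an empty vector. They do not spell out what the numbers in the name hIRF8379-389 denote either. Other constructs of the series, used below only to place the comparison, were hIRF8WT and hIRF8G388S, with 3 libraries each at day 4. Cells came from male and female mice, and the strain and age are not stated. Nothing in the labels says that replicates came from separate animals or cultures, so the p-values measure the spread between these libraries, which may be technical.

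IRF8 is a transcription factor of the interferon regulatory factor family that binds DNA mostly together with partners such as PU.1 and BATF proteins through its carboxy-terminal association domain. It is known for directing monocyte and type 1 conventional dendritic cell development, for switching on antigen presentation and interferon-stimulated genes in macrophages, and for restraining osteoclast formation. RANKL lowers its level in osteoclast precursors, which precedes the rise of NFATc1, the main transcription factor of the osteoclast programme.

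Values are the authors' RPKM, read counts scaled by gene length and library size. Differences are log2 fold changes on the log2(RPKM + 1) scale with the standard error of the fit, which understates the change of low genes; a value written with ± and no other unit is such a log2 fold change and its standard error. Calls are adjusted p-values below 0.05 from limma (two-sided, Benjamini-Hochberg over 10869 genes), fitted on the 12 libraries of day 4. The hIRF8379-389 libraries held 21.75 M, 60.23 M and 122 M alignments and the mock libraries 25.96 M, 68.54 M and 41.25 M, so depth differed several-fold between replicates. The deviation of a gene from its mean over libraries followed gene length to different degrees: the correlation was -0.444 to -0.338 in the hIRF8379-389 libraries and -0.245 to 0.177 in the mock libraries. Over genes, the fold change had a Spearman correlation of -0.176 with exon length, and with a trend over length subtracted 2964 genes were higher and 2731 lower. The day 4 libraries of both groups held the osteoclast markers at high levels, for instance Ctsk, cathepsin K, at 2719, 2704 and 2749 RPKM with the construct and 3007, 3162 and 3148 RPKM in mock.

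The targeted gene came first. Irf8 stood at 18.1, 14.5 and 15.8 RPKM in the hIRF8379-389 libraries and at 6.9, 6.74 and 6.33 RPKM in the mock libraries. All 3 construct libraries lay above all 3 mock libraries, with means of 16.2 ± 1.82 and 6.66 ± 0.296 RPKM (SD, n = 3 each). The log2 fold change was 1.16 ± 0.08 (SE, adjusted p = 4.04e-08). The gene lies at chr8:120736358-120756694 (mm10), and the values are given per gene, by counting rules not known here. Reads from the mouse transcript and reads of the human construct that align to mouse Irf8 cannot be told apart in them. The mock level is given for comparison, and the labels do not say whether it comes from an intact or a disrupted gene. The level with hIRF8379-389 was below that with hIRF8WT (24.6 RPKM, log2 difference -0.58 ± 0.08, adjusted p = 5.16e-05) and below that with hIRF8G388S (22.6 RPKM, -0.46 ± 0.08, adjusted p = 0.00366).

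At day 4, 5554 of 10869 genes passed the threshold (51.1%), with 2395 higher (22%) and 3159 lower (29.1%) with the construct than in mock. With median-of-ratios scaling the split turned to 2881 higher and 2704 lower, and with all 33 transduced osteoclast libraries in the fit 3408 genes passed. The median log2 fold change over all genes tested was -0.05. Counts of called members of a gene list against mock, given below, are to be read beside the 22% and 29.1% of all genes. Testing needed at least 1 RPKM in 2 libraries. A gene below that in every mock library was tested only where construct libraries reached it, and could hardly be called lower. Changes of at least 2-fold were fewer, 488 genes (4.49%), and mostly upward: 294 rose (2.7%) and 194 fell (1.78%) by that much. The 3 libraries of each group did not overlap for 6101 genes (56.1%). Of the 12 largest rises, 4 were of class II presentation and 3 of complement. On the log2(RPKM + 1) scale the largest rise was 86.5-fold and the largest fall 6.58-fold. These folds and the ranking depend on the added 1 RPKM and are not ratios of the levels. In bulk RNA, fewer cells of a type and less RNA per cell cannot be told apart, which holds for each difference given here.

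**Figure D1:**
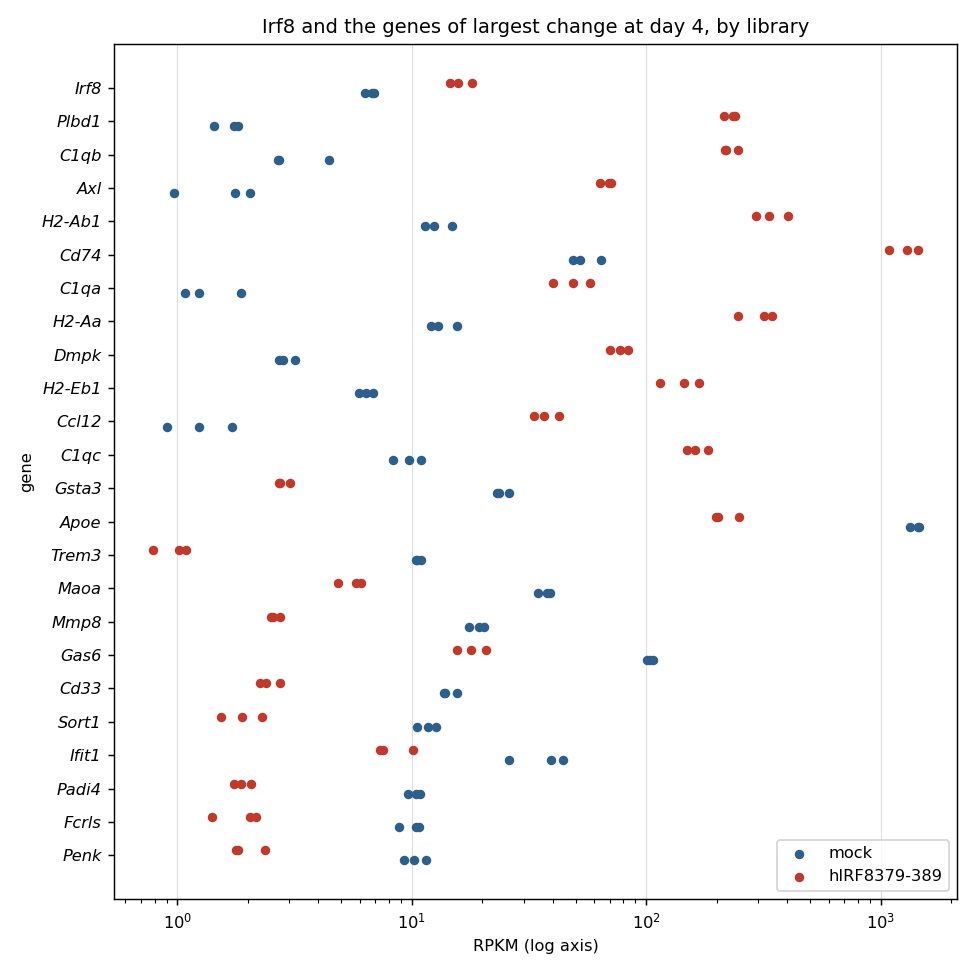
RPKM (log axis) in each library of Irf8 and of 11 of the 12 genes with the largest rise and the 12 with the largest fall at day 4; blue points are the 3 mock libraries and red points the 3 hIRF8379-389 libraries. The groups do not overlap for any of the 24 genes shown, which was a condition for choosing all of them but Irf8. Plbd1 separates the groups most, at 229 against 1.67 RPKM on average.

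The largest rise was that of Plbd1, a phospholipase B-like protein of the lysosome, at chr6:136612070-136661928. It was read at 235, 239 and 214 RPKM with the construct and at 1.82, 1.74 and 1.44 RPKM in mock. Each construct library was over 100 times above each mock library, the log2 fold change being 6.43 ± 0.07 (fold 86.5, adjusted p = 1.24e-16). Dmpk, a serine/threonine kinase known from muscle, went from 2.91 RPKM in mock to 77 RPKM on average (4.32 ± 0.07). Neither gene belongs to the pathways described next.

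Genes of MHC class II presentation rose throughout. All 10 tested members of the list of 12 were higher and none lower, with a median log2 fold change of 3.21, against 22% higher and a median of -0.05 over all genes. The chains of the peptide-binding molecules led. H2-Ab1, the beta chain of I-A (chr17:34257689-34269419), was at 405, 334 and 296 RPKM with the construct and at 14.9, 12.4 and 11.4 RPKM in mock. H2-Aa, its alpha chain (chr17:34282744-34287823), was at 344, 319.9 and 246 against 15.6, 12.1 and 13 RPKM. H2-Eb1, the beta chain of I-E (chr17:34305867-34316674), was at 169, 145 and 115 against 6.83, 6.37 and 5.94 RPKM. For these 3 genes the lowest construct library lay far above the highest mock library, with log2 fold changes of 4.63 ± 0.10, 4.38 ± 0.11 and 4.27 ± 0.10. In each of them replicate 3 was the lowest of the construct libraries, a spread that was small beside the distance to mock.

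Cd74, the invariant chain that fills the class II groove until peptide is loaded, was the most abundant of the group. Its level was 1446, 1295 and 1092 RPKM with the construct and 64.5, 52.1 and 48.6 RPKM in mock, a log2 fold change of 4.51 ± 0.10. H2-DMa and H2-DMb1, the chains of the molecule that swaps the invariant chain fragment for peptide, rose by 3.69 ± 0.10 and 2.1 ± 0.07. The near-identical partner gene H2-DMb2 rose by 1.14 ± 0.20, and how reads were divided between it and H2-DMb1 is not known here. Ciita, the coactivator that switches on class II genes, was nearly unread in mock, at 0.154, 0.157 and 0.25 RPKM, and was at 7.5, 7.24 and 5.86 RPKM with the construct. Its log2 fold change of 2.72 ± 0.09 is compressed by the added 1 RPKM. Ciita was tested only through construct libraries, so its call adds little to the list count. The rise was smaller for the endosomal enzymes of the list: Ifi30, a thiol reductase that unfolds antigens, rose by 1.04 ± 0.06 and Ctss, the protease that trims the invariant chain, by 0.56 ± 0.08. The 2 members below the expression minimum were H2-Ob, at 0.873, 0.913 and 0.824 RPKM with the construct and 0.0164, 0.0188 and 0.0208 RPKM in mock, and H2-Oa, at 0.643 and 0.538 RPKM on average. These encode the inhibitor of the peptide exchange step and got no test.

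The promoters of H2-Aa and H2-Eb1 are shown because the Y box, an element of class II promoters bound by the NF-Y complex, can be read in both, in capitals in the 250 bases before each start site (RefSeq, GRCm38.p6, 5′ to 3′ on the gene's strand). H2-Aa lies on the minus strand with its window at chr17:34287824-34288073 and the match begins at -51, and the H2-Eb1 window is chr17:34305617-34305866 on the plus strand with the match at -62.
H2-Aa: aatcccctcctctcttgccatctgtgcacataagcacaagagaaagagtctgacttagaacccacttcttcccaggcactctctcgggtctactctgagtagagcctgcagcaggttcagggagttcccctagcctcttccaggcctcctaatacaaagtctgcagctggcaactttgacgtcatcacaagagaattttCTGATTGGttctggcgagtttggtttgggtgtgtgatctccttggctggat
H2-Eb1: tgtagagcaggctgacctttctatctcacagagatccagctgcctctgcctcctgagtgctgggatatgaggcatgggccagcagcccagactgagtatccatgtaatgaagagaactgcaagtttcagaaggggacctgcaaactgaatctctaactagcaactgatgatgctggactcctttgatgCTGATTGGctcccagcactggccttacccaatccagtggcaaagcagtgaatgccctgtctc
The letters searched were CTGATTGG on both strands, found in 4.43% of the 27025 genes with a RefSeq promoter window of this length. Of the 7 class II list members with a window, 2 held it. A match is a description of letters, not a bound site or a cause, and these promoters were chosen for printing after the values and letters were seen.

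Class I presentation genes rose in part. Of 16 tested, 11 were higher, 3 lower and 2 did not pass, with a median of 0.48. Over all genes 22% were higher and 29.1% lower. The subunits of the immunoproteasome, which cuts peptides for class I, were among the higher ones: Psmb8 by 0.73 ± 0.10, Psmb9 by 0.92 ± 0.10 and Psmb10 by 1.13 ± 0.10. The classical chains H2-K1 and H2-D1 were lower (-0.47 ± 0.08 and -0.38 ± 0.07), while the non-classical H2-Q7 rose from 5.07 to 18 RPKM. Class I heavy chain genes are close paralogs, so reads may be split between them in ways the deposited values do not show. B2m, the shared light chain, was at 3022 and 2868 RPKM and did not pass (log2 difference 0.07 ± 0.08).

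The 3 genes of C1q, the recognition molecule of the classical complement pathway that macrophages make, stood side by side on chromosome 4 and were all among the 12 largest rises. C1qb (chr4:136880129-136886187) was at 246, 220.0 and 217 RPKM with the construct and 4.42, 2.69 and 2.72 RPKM in mock. C1qc was at 183, 161 and 149 against 11, 8.33 and 9.78 RPKM, and C1qa was at 57.6, 48.9 and 40.2 against 1.87, 1.08 and 1.23 RPKM. No construct library overlapped a mock library, which was a condition for a place among the largest rises. The log2 fold changes were 5.76 ± 0.13, 3.95 ± 0.09 and 4.38 ± 0.13. Within the complement list of 12, 8 genes were tested, of which 4 rose and 1 fell (2 without mock replicate 1), against 22% and 29.1% of all genes. The other riser was Cfp, properdin, by 0.57 ± 0.09, and the gene that fell was C3, the central component (-0.57 ± 0.07). Cfb, which feeds the alternative pathway, had a log2 difference of -0.20 that did not pass. C2 and C4b, which act after C1q in the classical pathway, were at 0.0887 and 0.0197 RPKM with the construct and at 0.101 and 0.0496 RPKM in mock.

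Chemokine genes moved in both directions. Of 15 tested inflammatory cytokine and chemokine genes, 7 rose and 4 fell, against 22% and 29.1% of all genes. The share that fell is near that over all genes. Ccl12, a CCR2 ligand in mice, was at 33.3, 36.5 and 42.6 RPKM with the construct and 1.72, 0.904 and 1.24 RPKM in mock. Ccl7 and Ccl2, ligands of the same receptor encoded near it, rose by 3.82 ± 0.13 and 3.55 ± 0.10. Ccl2 was already read in mock, at 20.3, 16.3 and 15.5 RPKM, and every construct library lay above it, at 218, 222 and 200.5 RPKM. Cxcl16, a membrane-bound ligand of CXCR6, rose by 2.71 ± 0.07, and Ccl22, a CCR4 ligand, by 2.15 ± 0.11. Falling members were Il1rn, the interleukin-1 receptor antagonist (-1.59 ± 0.06), Ccl3 (-1.53 ± 0.11), Tnf (-0.56 ± 0.08) and Cxcl2 (-0.43 ± 0.10). Ccl4 and Ccl5 had log2 differences of 0.04 and -0.09 that did not pass. Il6 and Nos2 were close to 0 in both groups, at 0.0757 and 0.0717 RPKM with the construct.

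Axl and Mertk, related receptors for apoptotic cells, changed in opposite directions. Axl, a TAM receptor tyrosine kinase, was at 69.7, 63.4 and 70.9 RPKM with the construct and 1.77, 0.97 and 2.04 RPKM in mock, a log2 fold change of 4.76 ± 0.12. Its ligand Gas6 fell: 20.8, 18 and 15.6 RPKM with the construct against 107, 100.5 and 104 RPKM in mock (-2.46 ± 0.08). The groups did not overlap for either gene, which was a condition for naming both among the largest changes. Mertk, which also binds Gas6, fell (-1.68 ± 0.09). Axl and Gas6 are among the 24 genes of largest change, and Mertk comes from the macrophage list.

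The largest falls were of genes with varied roles. Gsta3, a glutathione S-transferase, was at 2.73, 3.03 and 2.73 RPKM with the construct and 25.9, 23.5 and 23.2 RPKM in mock, a log2 fold change of -2.72 ± 0.08 (fold 6.58, adjusted p = 3.34e-12). Apoe, the lipid carrier of macrophages, was at 248, 199 and 202 against 1461, 1331 and 1442 RPKM (-2.71 ± 0.08). It was the most abundant of the falling genes, and every construct library was over 5 times below every mock library. Mmp8, neutrophil collagenase, was at 2.55, 2.75 and 2.5 against 17.6, 20.4 and 19.3 RPKM (-2.48 ± 0.10), and the sums of the neutrophil markers, to which it belongs, are given further on. Trem3, an activating receptor of mouse myeloid cells, fell from 10.7 to 0.964 RPKM on average, and Maoa, monoamine oxidase A, from 37.1 to 5.57 RPKM. Cd33, a sialic acid-binding inhibitory receptor, fell (-2.15 ± 0.08), and Sort1, the sorting receptor sortilin (-2.12 ± 0.11). Padi4, which converts arginine to citrulline in histones, Fcrls, a scavenger receptor known from mouse microglia, and Penk, the precursor of enkephalins, fell (-1.97 ± 0.10, -1.95 ± 0.11 and -1.93 ± 0.11). Each of the 12 falling genes had a mock mean above 10 RPKM, which a ranking on log2(RPKM + 1) favours. Some were low with the construct, for instance Trem3 at 0.964 RPKM and Fcrls at 1.87 RPKM on average.

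Most of the tested dendritic cell genes were higher. Of 10 tested on the list of 16, 8 were higher, none lower (1 without mock replicate 2) and 2 did not pass, with a median of 1.45. Members such as Clec9a and Batf3, below 1 RPKM in every mock library, were tested only through construct libraries. Their calls as higher therefore add little to this count and median. With only genes reaching 5 RPKM kept, the number higher was 5. Clec9a, a receptor for dead cells on type 1 conventional dendritic cells, was at 7.44, 8.33 and 8.83 RPKM with the construct and at 0.0666, 0.0355 and 0.0759 RPKM in mock. Batf3, the partner of IRF8 needed for that cell type, was at 10.8, 8.08 and 6.48 against 0.123, 0.0939 and 0.039 RPKM, and Itgax, the integrin CD11c, at 53.5, 49.4 and 49.6 against 6.29, 6.63 and 6.87 RPKM. For all 3 genes each construct library was several-fold above each mock library, with log2 fold changes of 3.12 ± 0.08, 3.1 ± 0.14 and 2.77 ± 0.06. Naaa, an acid amidase high in type 1 dendritic cells, rose by 2.64 ± 0.07, Dpp4 by 1.83 ± 0.08, Clec10a by 1.06 ± 0.09, Zbtb46, a conventional dendritic cell transcription factor, by 0.87 ± 0.08 and Xcr1, a chemokine receptor of type 1 dendritic cells, by 0.73 ± 0.10. Other defining genes stayed low: Flt3, the growth factor receptor of dendritic cell precursors, was at 0.0601 and 0.0197 RPKM, Siglech, of plasmacytoid dendritic cells, at 0.0185 and 0.0385 RPKM, and Cd209a was at 0 in all 6 libraries. The summed level of the 16 genes was 367 to 404 RPKM with the construct and 180 to 243 RPKM in mock. Whether cells of another type contribute was not tested.

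Among other interferon regulatory factors and their partners, 7 of 10 tested were higher and none lower, with a median of 0.55. Batf3, given above, is on both this list and the dendritic cell list and is counted in each. Irf5, which drives inflammatory cytokines, was at 121, 110.0 and 116 RPKM with the construct and 30.6, 27.3 and 28.1 RPKM in mock (1.97 ± 0.06). Irf7, the amplifier of type I interferon, rose by 0.91 ± 0.18, Irf2 by 0.67 ± 0.06 and Irf1 by 0.55 ± 0.06. Irf3 and Irf9 had log2 differences of 0.02 and 0.02 that did not pass, and Irf4, a close relative of Irf8, was at 0.195 and 0.261 RPKM.

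Toll-like receptor genes of the endosome were led by Tlr9, the sensor of CpG DNA. It was at 11.5, 10.3 and 10.9 RPKM with the construct and 0.708, 0.655 and 0.752 RPKM in mock, with no overlap and a log2 fold change of 2.8 ± 0.07. Of the 12 genes of this list, 5 rose, 2 fell and 5 did not pass, against 22% higher and 29.1% lower over all genes. Unc93b1, the chaperone that carries these receptors to the endosome, rose by 0.64 ± 0.07, and Lgmn, a protease that processes them, by 1.003 ± 0.07. The RNA sensors Tlr3, Tlr7 and Tlr8 had log2 differences of -0.09, -0.11 and -0.18 that did not pass, and Tlr13, the bacterial RNA sensor of mice, fell (-0.50 ± 0.07). Among surface receptors, 3 of 7 tested rose and 1 fell, beside the same shares over all genes. Tlr4, the LPS receptor, rose by 0.49 ± 0.07 and Cd14, which hands it LPS, fell (-0.51 ± 0.09). Ly86, the partner of Cd180, was below the minimum at 0.925, 0.799 and 1.23 RPKM with the construct and 0, 0.0335 and 0.0557 RPKM in mock.

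Macrophage identity genes were more often lower. Of 20 tested, 12 fell and 5 rose, with a median of -0.44, against 29.1% lower and 22% higher over all genes. Adgre1, the macrophage surface marker F4/80, was at 81.2, 76.2 and 73.2 RPKM with the construct against 165, 177 and 177 RPKM in mock. Marco, a scavenger receptor, fell (-1.13 ± 0.11), Cd68, a lysosomal glycoprotein of macrophages (-0.76 ± 0.06) and Siglec1, CD169 (-0.86 ± 0.18). In the other direction, Fcgr1, the high-affinity IgG receptor, rose from 1.08, 0.846 and 0.912 RPKM in mock to 21.2, 18.3 and 24.4 RPKM (3.51 ± 0.10). Csf1r, the receptor of MCSF, was at 299.9 and 268 RPKM, a small rise of 0.16 ± 0.06. Among the 5 Fc-gamma receptor genes, 1 was higher, Fcgr1, a share near that over all genes, or 2 without hIRF8379-389 replicate 3. Of the others, Fcgr2b, the inhibitory receptor, and Fcgr4 fell (-1.02 ± 0.09 and -0.48 ± 0.10), and Fcgr3 and the shared chain Fcer1g did not pass. In the Ms4a cluster of 4-span membrane proteins 5 of 6 tested genes fell, among them Ms4a7 (-1.54 ± 0.08) and Ms4a6d (-1.62 ± 0.07), and Ms4a4c rose by 1.19 ± 0.14. Members of both families are similar in sequence, so the values of single genes are uncertain where reads match several.

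Of 29 tested type I interferon-stimulated genes, 7 rose, 11 fell and 11 did not pass, with a median of -0.10. These shares are near those over all genes, of which 22% rose and 29.1% fell, so the values below describe single members and not the list. The number that fell was 7 without hIRF8379-389 replicate 2 and 7 without mock replicate 3. Mx1, a dynamin-like antiviral GTPase, was at 9.99, 10.3 and 14 RPKM with the construct and 0.579, 0.348 and 0.809 RPKM in mock. Ifit1, which binds viral RNA lacking cap methylation, went the other way, at 7.29, 7.57 and 10.1 RPKM against 39.4, 25.9 and 44.3 RPKM. Both pairs of groups were separate, which for Ifit1 was a condition of its place among the largest falls. For both genes hIRF8379-389 replicate 3 was the highest construct library and mock replicate 2 the lowest mock library. The log2 fold changes were 2.97 ± 0.13 and -1.99 ± 0.16. Neighbours of Ifit1 in the same family were split: Ifit3 fell (-1.37 ± 0.21) and the near-identical Ifit3b (-1.71 ± 0.19), whereas Ifit2 rose by 1.1 ± 0.21. Reads of Ifit3 and Ifit3b may be shared. Oasl1, an inhibitor of Irf7 translation in mice, rose by 1.6 ± 0.19 and Ifi44 by 1.87 ± 0.22, while Oas2 fell (-0.96 ± 0.14), Ddx58, the RNA sensor RIG-I (-0.96 ± 0.12) and Rtp4 (-1.08 ± 0.15). Isg15, a ubiquitin-like modifier, was at 56.4, 52.4 and 70.2 RPKM with the construct and 88.3, 49.1 and 95.2 RPKM in mock, groups that overlapped.

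**Figure D2:**
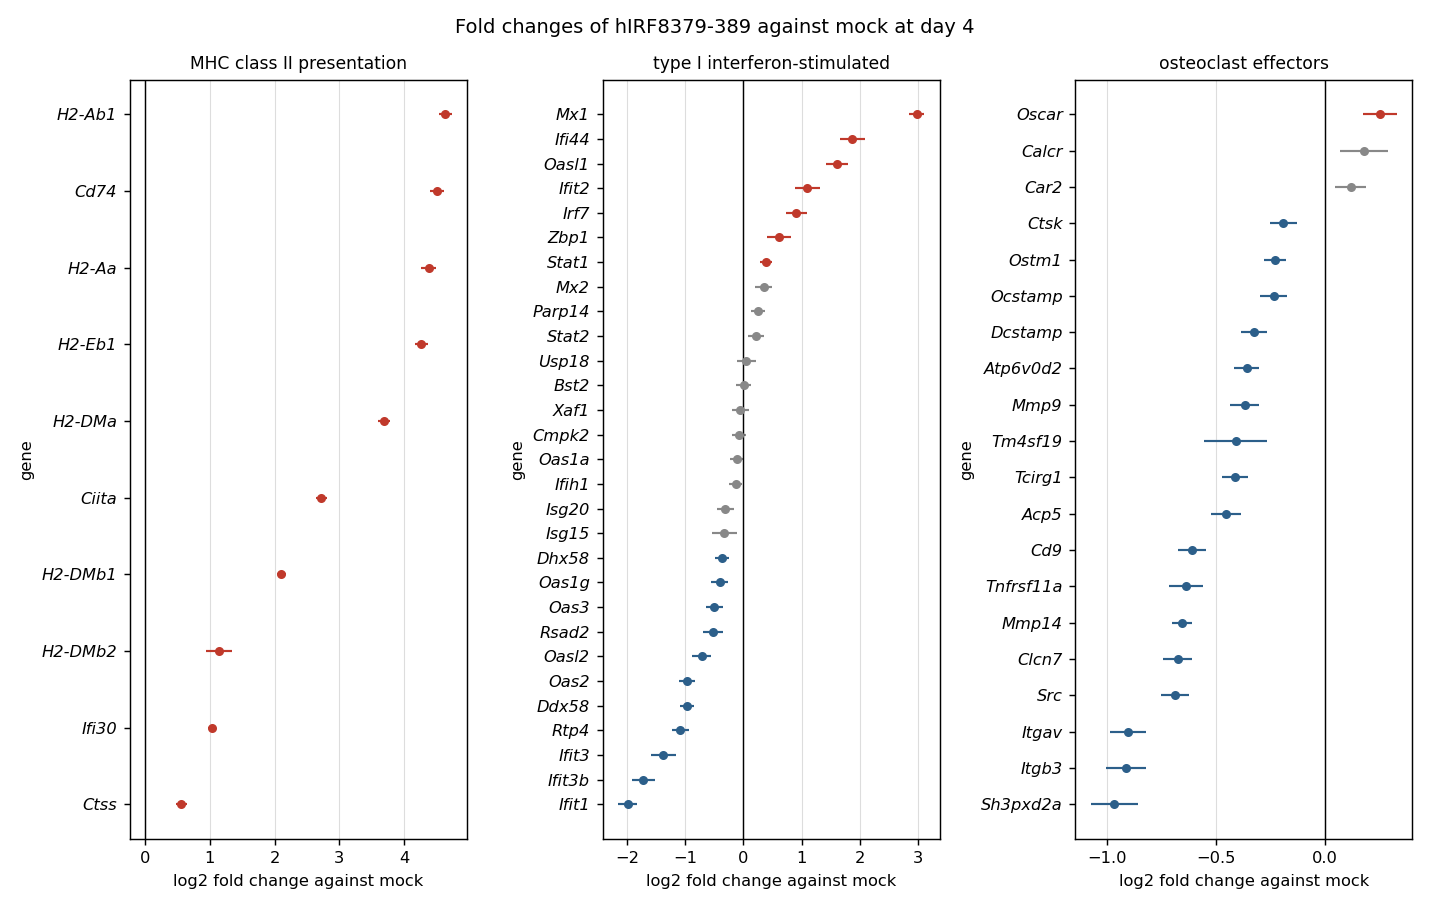
Log2 fold change of hIRF8379-389 against mock at day 4 with its standard error for each tested gene of the MHC class II, type I interferon-stimulated and osteoclast effector lists; red is higher, blue lower and grey not past the threshold, and the horizontal scales differ between panels. All 10 class II genes lie above 0, the interferon-stimulated genes spread from Ifit1 at -1.99 to Mx1 at 2.97, and 17 of 20 osteoclast effectors lie below 0 by less than 1.

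Of 12 tested genes induced mainly by interferon gamma 3 rose and 5 fell, against 22% and 29.1% of all genes, which is no result about the list. The number that fell ranged from 3 to 8 when single libraries were left out, being 8 without mock replicate 2. Gbp2, a guanylate-binding GTPase, rose by 1.51 ± 0.09 and Cxcl10 by 0.97 ± 0.21, whereas Irgm2 and Gbp7 fell (-1.37 ± 0.10 and -0.92 ± 0.12). Iigp1, an immunity-related GTPase below the expression minimum, was at 0.729, 0.728 and 1.15 RPKM with the construct and 0.0702, 0.092 and 0.126 RPKM in mock. In the Schlafen family 3 of 8 rose, led by Slfn1 (1.42 ± 0.18), and 2 fell, of which Slfn5 (-0.47 ± 0.12) was one, shares not far from those over all genes. The number that fell was 1 without hIRF8379-389 replicate 1 or 2 or mock replicate 3.

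IRF proteins bind the interferon-stimulated response element and, together with ETS factors such as PU.1, composite elements. The promoters below are those of changed genes in which a core of such an element can be read, in capitals, and they were chosen for that. Clec9a (chr6:129408612-129408861, plus strand) and Tlr9 (chr9:106222348-106222597, plus strand) rose and hold a composite core, GAAA and GGAA with 2 bases of any kind between them, beginning at -70 on the reverse strand and at -116. Mmp8 (chr9:7558179-7558428, plus strand) fell and holds the same core at -199. Ifit1 (chr19:34640639-34640888, plus strand) and Ifit3 (chr19:34583279-34583528, plus strand) fell and each hold the response element core, GAAA and GAAA with 2 bases between, on the reverse strand in a pair of copies, at -104 and -85 and at -156 and -122. All are the 250 bases before the start site from RefSeq, GRCm38.p6, written on the gene's strand.
Clec9a: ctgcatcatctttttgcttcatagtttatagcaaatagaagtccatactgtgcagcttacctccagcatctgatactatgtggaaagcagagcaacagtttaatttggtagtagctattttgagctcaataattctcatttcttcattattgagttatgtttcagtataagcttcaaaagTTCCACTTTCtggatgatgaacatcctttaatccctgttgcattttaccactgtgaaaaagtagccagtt
Tlr9: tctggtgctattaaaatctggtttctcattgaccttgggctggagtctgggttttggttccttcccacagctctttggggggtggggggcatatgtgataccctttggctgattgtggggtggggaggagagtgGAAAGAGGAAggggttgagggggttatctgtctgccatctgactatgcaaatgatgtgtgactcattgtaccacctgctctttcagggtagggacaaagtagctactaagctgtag
Mmp8: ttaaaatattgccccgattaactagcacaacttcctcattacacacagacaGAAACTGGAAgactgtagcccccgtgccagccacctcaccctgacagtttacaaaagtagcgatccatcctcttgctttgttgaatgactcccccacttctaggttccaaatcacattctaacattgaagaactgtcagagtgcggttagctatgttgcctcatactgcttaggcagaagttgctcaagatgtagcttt
Ifit1: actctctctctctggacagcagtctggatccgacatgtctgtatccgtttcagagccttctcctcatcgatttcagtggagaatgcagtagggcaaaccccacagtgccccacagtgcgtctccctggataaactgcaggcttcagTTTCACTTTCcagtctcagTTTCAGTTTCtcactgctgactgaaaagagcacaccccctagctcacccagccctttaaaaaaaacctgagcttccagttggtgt
Ifit3: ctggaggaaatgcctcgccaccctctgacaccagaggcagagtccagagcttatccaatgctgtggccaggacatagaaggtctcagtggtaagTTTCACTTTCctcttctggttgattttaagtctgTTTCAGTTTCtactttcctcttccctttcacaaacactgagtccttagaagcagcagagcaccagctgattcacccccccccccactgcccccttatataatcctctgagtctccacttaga
Both strands were searched, and these cores can overlap one another and the further composite core of GGAA and GAAA spaced alike. Of the 27025 genes with a window, 3.46% held the response element core, 2.62% the composite core of GAAA and GGAA and 2.68% the further one. Of the 20 interferon-stimulated list genes with a window 10 held the response element core. Of these 10, 6 fell, 4 did not pass and none rose, while on the whole list of 29 tested genes 11 fell and 7 rose. The 10 include near-identical genes such as Ifit3 and Ifit3b, and this split was not tested. Among the 12 largest rises, 8 had a window and none of these 8 held any of the 3 cores. Among the 12 largest falls, 9 had a window: 1 held the response element core, Ifit1, and 4 held the composite core of GAAA and GGAA, which were Apoe, Mmp8, Cd33 and Fcrls. The missing letters say nothing of binding elsewhere in a gene.

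Osteoclast effector genes were lower with the construct, by small amounts. Of 20 tested, 17 fell, 1 rose and 2 did not pass, with a median of -0.41, against 29.1% lower over all genes. Fitted with all 33 transduced osteoclast libraries, 11 fell. Ctsk, the collagen-degrading protease, had the values given above, 2704 RPKM or more in every construct library and 3007 RPKM or more in every mock library, and a log2 fold change of -0.19 ± 0.06 (adjusted p = 0.0214). Acp5, the tartrate-resistant phosphatase used to stain osteoclasts, was at 1623, 1463 and 1423 RPKM against 2033, 2091 and 2044 RPKM (-0.45 ± 0.07). The groups did not overlap for either gene, and the fold was 1.14 and 1.37. Of genes of adhesion and podosomes, Itgb3, the integrin beta 3 chain, was at 29.1, 25.7 and 26 RPKM with the construct and 44.6, 49.5 and 62.1 RPKM in mock (-0.92 ± 0.09), Itgav, its alpha V partner, fell (-0.91 ± 0.08), Sh3pxd2a, a podosome scaffold (-0.97 ± 0.11) and Src (-0.69 ± 0.07). Dcstamp and Ocstamp, needed for cell fusion, fell (-0.32 ± 0.06 and -0.23 ± 0.06). For acid secretion, the chloride channel Clcn7 fell (-0.68 ± 0.07) and the proton pump subunits Tcirg1 and Atp6v0d2 (-0.41 ± 0.06 and -0.36 ± 0.06), while Car2, carbonic anhydrase II, did not pass (0.12 ± 0.07). Tnfrsf11a, the RANK receptor itself, fell (-0.64 ± 0.08). The gene that rose was Oscar, a costimulatory collagen receptor, by 0.26 ± 0.08, and the number higher was 0 without hIRF8379-389 replicate 1 or mock replicate 3 and 3 without mock replicate 2. Calcr, the calcitonin receptor, was at 7.75, 6.67 and 6.8 RPKM and 5.13, 7.34 and 6.003 RPKM and did not pass.

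Among the transcription factors and signalling genes downstream of RANK, 14 of 25 fell and 4 rose, with a median of -0.23. Nfatc1 was at 31, 28.8 and 32.1 RPKM with the construct and 49.9, 53.1 and 58.4 RPKM in mock, without overlap, a log2 fold change of -0.79 ± 0.07 (adjusted p = 2.68e-07). Trem2, a costimulatory receptor, fell (-1.005 ± 0.08), Fosl2, an AP-1 subunit (-0.82 ± 0.07) and Ppargc1b, a coactivator of mitochondrial genes in osteoclasts (-0.78 ± 0.09). Prdm1, a repressor of osteoclast inhibitors, fell (-0.57 ± 0.07), while Fos rose by 0.49 ± 0.05. Spi1, which encodes PU.1, had a log2 difference of -0.10 ± 0.08 and did not pass. Of 15 tested repressors of osteoclast formation, 7 rose and 2 fell (1 without hIRF8379-389 replicate 2 or mock replicate 1), with a median of -0.01. The helix-loop-helix inhibitors rose most: Id3 from 22.8, 16.8 and 14.9 RPKM in mock to 131, 109 and 97.5 RPKM (2.58 ± 0.12), Id1 by 1.98 ± 0.10 and Id2 by 1.04 ± 0.06. Zfp36, which destabilises cytokine mRNA, rose by 0.97 ± 0.07 and Rbpj by 0.80 ± 0.05. Lilrb4a, an inhibitory receptor, fell (-1.14 ± 0.06), and Bcl6 had a log2 difference of -0.01 that did not pass.

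**Figure D3:**
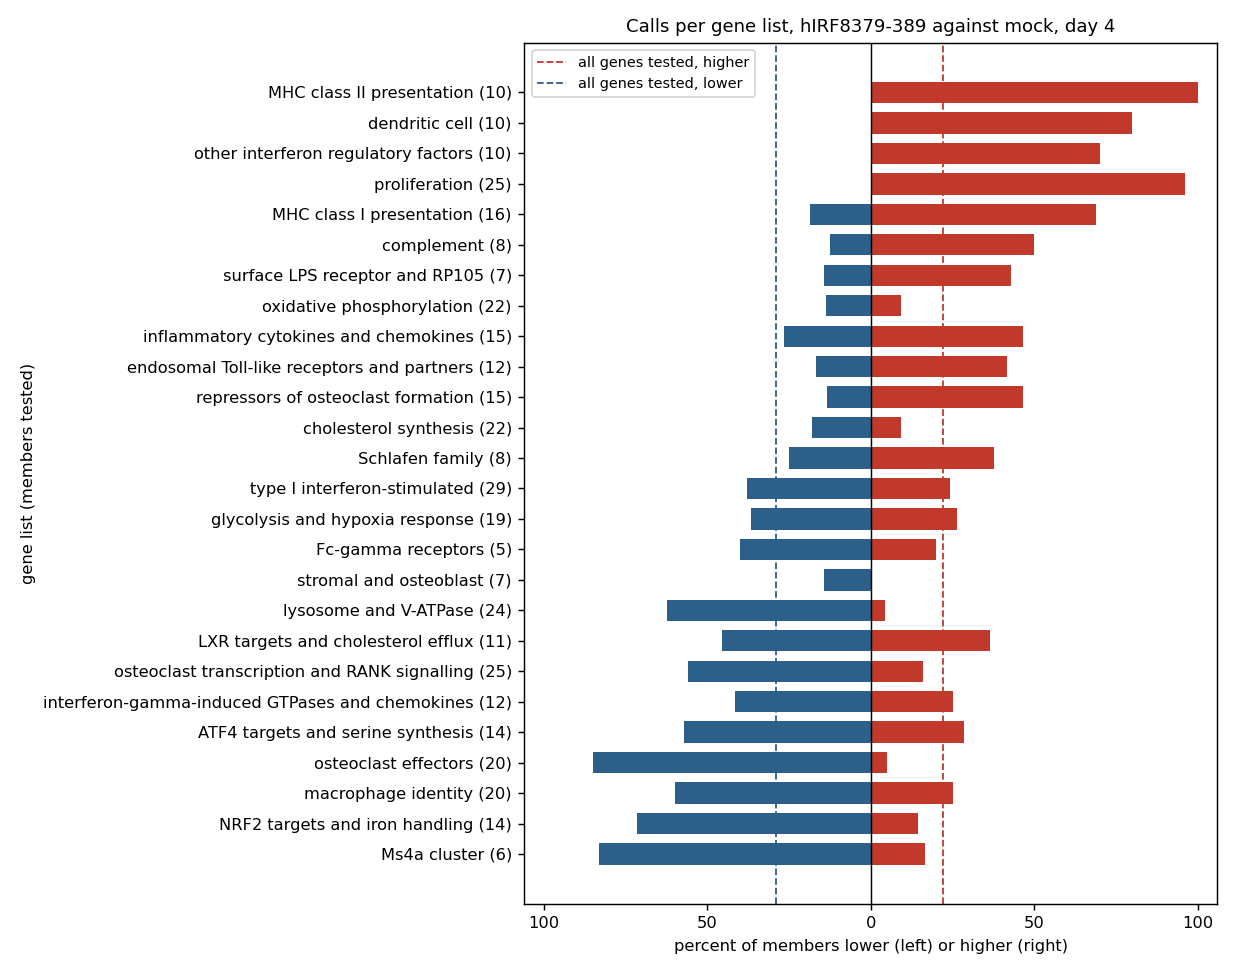
Percent of the tested members of each gene list that were lower (blue, to the left) or higher (red, to the right) with hIRF8379-389 than in mock at day 4, with the number tested in brackets, for lists with 5 or more tested genes. Dashed lines mark the percent lower (29.1) and higher (22) over all genes tested; class II, dendritic cell, interferon regulatory factor and proliferation lists have no lower member.

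Proliferation genes were higher: 24 of 25 rose and none fell, with a median of 0.51. The summed level of the list was 1140 to 1160 RPKM with the construct and 684 to 764 RPKM in mock. Ccnd1, cyclin D1, which lets cells enter the cycle, was at 161, 157 and 168 RPKM against 70.9, 69.4 and 68.9 RPKM (1.21 ± 0.05). Pcna, the sliding clamp of DNA replication, rose by 0.78 ± 0.07, Rrm2, which makes deoxynucleotides, by 0.79 ± 0.07 and Mki67, a nuclear protein of cycling cells, by 0.52 ± 0.10. Bub1, a mitotic checkpoint kinase, did not pass (0.10 ± 0.07).

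Genes of antioxidant defence and iron handling fell, 10 of 14 with 2 higher and a median of -0.55. Tfrc, the transferrin receptor, was at 107, 123 and 112 RPKM with the construct and 236, 248 and 298 RPKM in mock (-1.18 ± 0.08). Slc7a11, the cystine importer, fell (-0.96 ± 0.10), Txnrd1, thioredoxin reductase (-0.89 ± 0.05) and Nqo1, a quinone reductase (-0.88 ± 0.09), while Hmox1, haem oxygenase, rose by 0.52 ± 0.07. Of 14 genes of the ATF4 response and serine synthesis 8 fell and 4 rose, Chac1 falling (-0.71 ± 0.08) and Psat1, a serine synthesis enzyme, rising by 1.15 ± 0.05. That count of falls was 5 without hIRF8379-389 replicate 2 and 3 with all 33 libraries in the fit. Over all genes 29.1% fell and 22% rose. Slc7a11 is on both lists.

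Lysosome and proton pump genes were lower in 15 of 24 cases and higher in 1 (2 without mock replicate 1), with a median of -0.21. Ctsd, cathepsin D, went from 3707 RPKM in mock to 1775 RPKM on average (-1.06 ± 0.08), and Atp6v1a, the catalytic subunit of the pump, fell (-0.69 ± 0.06). Of 11 targets of the liver X receptors 5 fell and 4 rose, against 29.1% and 22% of all genes. Apoe and the lipid exporter Abca1 (-0.60 ± 0.12) were among those that fell. Those that rose included the phospholipid transfer protein Pltp (1.2 ± 0.08) and the desaturase Scd2 (1.36 ± 0.08). Of 19 glycolysis and hypoxia genes 5 were higher and 7 lower, shares near the 22% and 29.1% of all genes, with Vegfa, the vascular growth factor, falling (-0.70 ± 0.08). The count of falls there was 4 without hIRF8379-389 replicate 3 and 4 without mock replicate 2. Most genes of cholesterol synthesis did not pass, 16 of 22 with 2 higher and 4 lower, and the number higher was 1 without any 1 of hIRF8379-389 replicates 1 and 2 and mock replicates 2 and 3. In oxidative phosphorylation 17 of 22 did not pass, 2 were higher and 3 lower. The number higher there was 7 without mock replicate 1 or with median-of-ratios scaling, 1 without hIRF8379-389 replicate 2 and 0 without mock replicate 3. The number lower was 0 without hIRF8379-389 replicate 3 and 1 without hIRF8379-389 replicate 2 or mock replicate 1.

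Markers of other cell types were mostly low. Of 16 neutrophil and granulocyte precursor genes 4 were tested and all 4 fell, and the list summed to 12.1 to 12.7 RPKM with the construct against 32.6 to 41.2 RPKM in mock. Mmp8, described above, accounted for the largest share of the mock sums. S100a9 and S100a8, calcium-binding proteins of neutrophils, fell (-0.90 ± 0.21 and -0.77 ± 0.14), while the granule genes Elane and Mpo were at 0.0309 and 0.0449 RPKM with the construct. Of 12 erythroid and megakaryocyte genes 2 were tested and both rose: Pf4, a chemokine of platelets that macrophages also make, by 2.11 ± 0.11 and Ppbp by 0.95 ± 0.16. Hbb-bs and Gp9 were at 0 in all 6 libraries, with list sums of 36.9 to 44.8 RPKM against 7.22 to 11 RPKM. Of 16 stromal and osteoblast genes 7 were tested, 1 fell, Runx2 (-0.95 ± 0.08), and none rose (1 without mock replicate 3). The sums were 3.56 to 6.43 RPKM against 4.14 to 10.6 RPKM, and Lum was at 0. B cell genes summed to 0.671 to 0.964 against 1.53 to 1.58 RPKM with Blk at 0, and their 1 tested member, Cd22, fell (-0.55 ± 0.09), a call lost without mock replicate 2 or 3. T and NK cell genes summed to 2.6 to 3.23 against 5.42 to 5.97 RPKM with Cd3g, Nkg7 and Gzmb at 0, and their 1 tested member, Cd4, fell (-0.96 ± 0.08). No mast cell gene reached the minimum, the sums being 0.229 to 0.447 and 0.313 to 0.455 RPKM. The part of such cells in the results was not tested.

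The other constructs give the place of hIRF8379-389 among the transduced groups of day 4. These comparisons share the hIRF8379-389 libraries, and the hIRF8WT libraries of day 4 carry another prefix in the column names than the rest, so that construct and column prefix cannot be told apart there. Against hIRF8G388S, 1638 of 10869 genes passed (15.1%), 475 higher (4.37%) and 1163 lower (10.7%). The split turned to 885 higher and 807 lower with median-of-ratios scaling and was 906 and 902 with the length trend subtracted, and 105 genes passed with all 33 libraries in the fit. The count was 1090 with no filter on low values, 645 without hIRF8379-389 replicate 2 and 957 without replicate 3, and 637 and 921 without hIRF8G388S replicate 1 and 2. Against hIRF8WT 6213 genes passed (57.2%), 2726 higher (25.1%) and 3487 lower (32.1%), or 3665 with all 33 libraries. With median-of-ratios scaling the split was 3173 and 3105. The authors' own deposited q-values for this contrast were under 0.05 for far fewer genes, 1272 of 19092. By them Irf8 (0.057), Plbd1 (0.283), H2-Ab1 (0.117) and Gsta3 (0.369) did not pass, while Cd74 (0.030) and H2-Aa (0.0086) did.

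Class II genes were higher with hIRF8379-389 than with hIRF8G388S in 8 of 10 cases, with a median log2 difference of 0.38 and none lower. Over all genes 4.37% were higher and 10.7% lower in that comparison. Cd74 was at 837, 809.7 and 850.1 RPKM with hIRF8G388S and 600.5, 654 and 673 RPKM with hIRF8WT, below each of the hIRF8379-389 libraries given above. The log2 difference was 0.61 ± 0.10 (adjusted p = 0.00305) against hIRF8G388S and 0.98 ± 0.10 against hIRF8WT. H2-Ab1 differed by 0.67 ± 0.10 and 0.56 ± 0.10, and H2-Aa by 0.61 ± 0.11 and 0.81 ± 0.11, in the same order. Against hIRF8WT, 7 of 10 class II genes were higher and 1 lower, beside 25.1% and 32.1% of all genes. The lower one was Ciita, at 8.4 RPKM with hIRF8WT and 5.29 RPKM with hIRF8G388S, for log2 differences of -0.26 ± 0.09 and 0.32 ± 0.09 (adjusted p = 0.0182 and 0.0251).

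Of the 29 interferon-stimulated genes 0 passed in limma against hIRF8G388S (1 at an unadjusted p below 0.05), with a median difference of 0.10, and 3 were higher and 2 lower against hIRF8WT. Mx1 averaged 10.1 RPKM with hIRF8G388S and 11.3 RPKM with hIRF8WT, and Ifit1 7.91 and 7.08 RPKM, levels that overlap those with hIRF8379-389 and lie apart from mock. Osteoclast effectors were higher with hIRF8379-389 in 5 cases and lower in 3 of 20 against hIRF8G388S, and higher in 8 and lower in 4 against hIRF8WT. Over all genes the shares higher and lower were 4.37% and 10.7% against hIRF8G388S and 25.1% and 32.1% against hIRF8WT. These shares apply to each list count of this paragraph. Acp5 averaged 1273 RPKM with hIRF8G388S and 985 RPKM with hIRF8WT, below the 1503 RPKM with hIRF8379-389 by log2 differences of 0.24 ± 0.07 and 0.61 ± 0.07. Ctsk differed by 0.24 ± 0.06 and 0.18 ± 0.06. For both genes the hIRF8379-389 mean lay between mock and the other constructs. Plbd1 was higher with hIRF8379-389 by 0.50 ± 0.07 and 0.34 ± 0.07, and Gsta3 had log2 differences of -0.18 ± 0.08 and -0.26 ± 0.08, of which the first has adjusted p = 0.142 and the second adjusted p = 0.0154. Dendritic cell genes were higher in 4 and lower in 2 of 10 against hIRF8G388S. Proliferation genes were lower in 7 of 25 and higher in none there, and ATF4 targets were lower in 6 of 14.

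**Figure D4:**
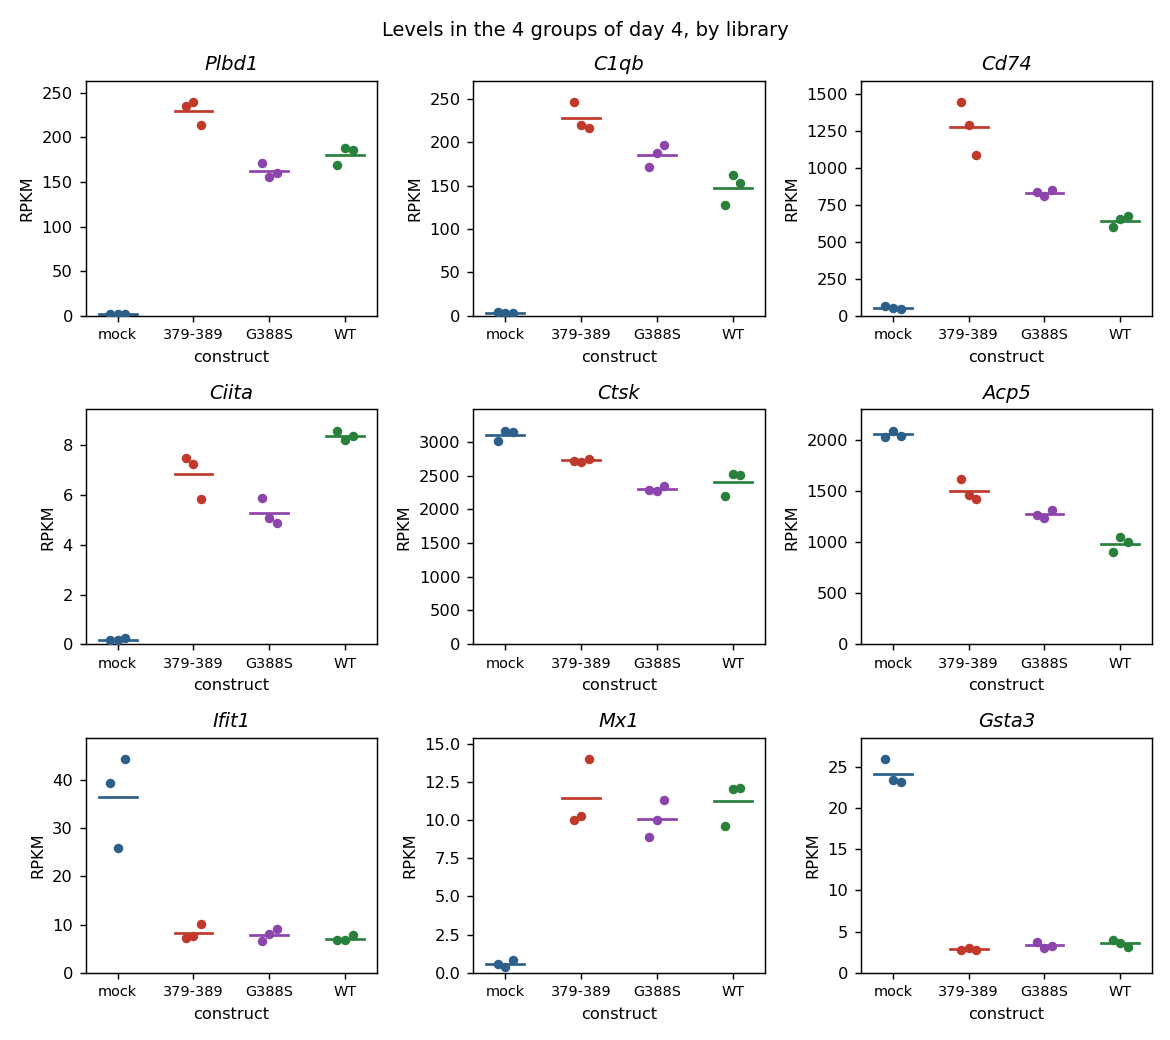
RPKM of 9 genes in each library of the 4 groups of day 4 (points) with the group mean (line); vertical axes start at 0 and differ between panels. Construct means are moderately below mock for Ctsk and Acp5 and far from mock in the other panels, and Cd74 is highest with hIRF8379-389, at 1278 RPKM.

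The same groups at day 0 and day 8 place day 4 in the course of differentiation. The mock libraries of day 0 stood apart, with summed RPKM of 512340 to 592527 against 370766 to 444511 in the hIRF8379-389 libraries of day 0, and with Mki67 at 10.2 against 31.3 RPKM, so differences at day 0 carry that contrast. At day 8 mock had 2 libraries, and no test is given there. The Irf8 means lay higher with the construct on both days, at 58 against 21.9 RPKM on day 0 and 21.8 against 6.19 RPKM on day 8. Both means were lower at day 4 than at day 0, and the change of the log2 difference between these days did not pass the threshold (-0.21 ± 0.21, adjusted p = 0.377 by limma on 24 libraries).

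Class II genes separated further on day 4. H2-Ab1 went from 104, 100.2 and 75.2 RPKM at day 0 to the day 4 values above with the construct and was at 28.1, 22.1 and 22.5 RPKM in mock at day 0. At day 8 it was at 115, 119 and 114 RPKM against 16.7 and 16.4 RPKM. Its level was therefore highest at day 4 with the construct and lowest at day 4 in mock, and the log2 difference grew by 2.74 ± 0.22 from day 0 to day 4. Of the 10 class II genes 9 had a larger difference at day 4 and none a smaller one. Over all genes the difference changed upward for 18.1% and downward for 43.7%. Clec9a was at 10.4 RPKM at day 0, 8.2 RPKM at day 4 and 1.25 RPKM at day 8 with the construct, and 0.0702, 0.0593 and 0.0401 RPKM in mock. Apoe lay lower with the construct at day 0 too, at 743, 603 and 522 RPKM against 4887, 5309 and 4567 RPKM, and the change of its difference to day 4 was 0.28 ± 0.23 (adjusted p = 0.287).

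Ctsk and Itgb3 were far higher at day 4 than at day 0 in both groups, with no test of that change. Ctsk was at 12.3, 11.8 and 14.1 RPKM with the construct and 33.7, 30.2 and 29.5 RPKM in mock at day 0, against the day 4 values above. At day 8 it was at 1287, 1259 and 1249 RPKM with the construct and 3547 and 2619 RPKM in the mock libraries, so the groups were farther apart on the linear scale than at day 4. Itgb3 was at 0.318, 0.31 and 0.398 RPKM and 0.195, 0.116 and 0.355 RPKM at day 0, reached the day 4 values above and was at 22.4, 22.4 and 20.6 RPKM against 25.9 and 27.2 RPKM at day 8. Over all genes 6972 of 11286 had a difference that changed between day 0 and day 4 (61.8%), 2045 upward (18.1%) and 4927 downward (43.7%), with a median of -0.32. After median-of-ratios scaling the split was 3298 and 3296. Of the 20 osteoclast effectors 14 changed downward and 2 upward by this measure, with a median of -0.93 against the -0.32 of all genes. Ctsk did not follow that direction: relative to mock, its level with the construct was lower at day 0 than at day 4.

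**Figure D5:**
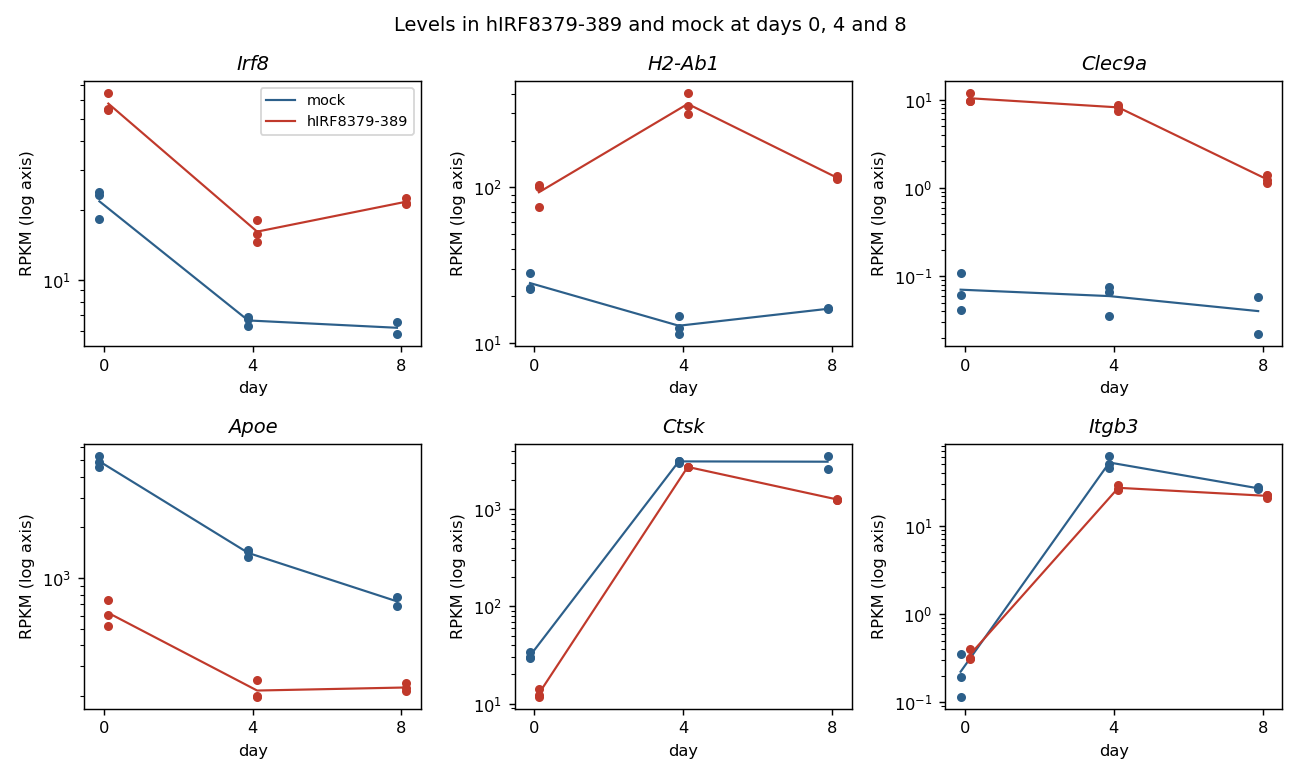
RPKM (log axis) of 6 genes at days 0, 4 and 8 in mock (blue) and hIRF8379-389 (red); points are libraries and lines join group means, with 2 mock libraries at day 8 and 3 libraries in the other groups. H2-Ab1 is highest at day 4 with the construct and lowest at day 4 in mock, Ctsk and Itgb3 are far higher at day 4 than at day 0 in both groups, and the points of the groups lie apart on all 3 days for Clec9a and Apoe.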

How the data were processed

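RNA-seq of cultured mouse cells gave RPKM values for 24543 genes in 90 libraries, which the authors computed with Partek from alignments to mm10, per the file headers. The submitters' processing notes name TopHat2 2.1.0, CASAVA 1.8.4 and bcl2fastq 2.17.1. The authors' deposited day 4 table holds group means of log2 values, which matched log2(RPKM + 0.1) of the libraries used here. Strand handling and counting rules are not known here. No raw counts were used, so counting intervals are not given. Genes with at least 1 RPKM in 2 libraries were tested on log2(RPKM + 1) with limma 3.58.1 in R 4.3.3 (empirical Bayes with a mean-variance trend, two-sided, Benjamini-Hochberg). Day 4 contrasts used the 12 day 4 libraries (8 residual degrees of freedom), and the change between days used 24 libraries (16). An exact permutation test of 3 against 3 libraries cannot go below p = 0.1. The procedure was tested on simulated data.

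The text names Irf8, the 12 largest rises and falls among called genes without overlap (predicted and unnamed genes left out), and for each of 31 lists up to 4 called and 2 other members; further members were named after their values were seen, and 1 of the largest rises and some list members are not reported here. Members and lists were chosen with earlier results of these data known. Same-numbered hIRF8379-389 and mock libraries of day 4 deviated together (correlations 0.375, 0.202 and 0.221), so the numbers were taken to pair them. With hIRF8WT and hIRF8G388S the same-number correlations with hIRF8379-389 were -0.0596 to 0.153. The main fit left the pairing out and gave 5554 genes. With a replicate block over all groups of day 4 5463 genes passed, and with it on hIRF8379-389 and mock alone 5918. Alternatives were another pseudocount, filter, scaling, set of libraries, trend setting, block, a length correction and leaving out each library. Promoter windows came from RefSeq (GRCm38.p6) and gene positions from an mm10 annotation.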

Additional observations from a re-analysis of the deposited data

Results flagged for a closer look

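The difference between hIRF8379-389 and mock changed between day 0 and day 4 for 6972 of 11286 genes by the interaction test in limma (adjusted p below 0.05). Of the 24 genes of largest change at day 4, 18 were among them, of which 17 are named here. These 24 were picked by their day 4 fold change, which tends to enlarge a change between the days, so no conclusion is drawn from their share. Over all genes 61.8% passed, with a median change of -0.32. The rise of class II genes grew most, with a log2 difference larger at day 4 than at day 0 by 3.01 for Cd74, 2.92 for H2-Eb1, 2.74 for H2-Ab1 and 2.64 for H2-Aa. Plbd1 grew by 2.29, and the C1q genes by 1.29 for C1qc, 1.01 for C1qa and 0.87 for C1qb. The chemokine Ccl12 grew by 1.25 and the receptor Axl by 1.24. Among genes lower at day 4, the change was -1.17 for Gas6, -1.10 for Cd33, -1.09 for Padi4, -0.86 for Sort1, -0.84 for Mmp8 and -0.64 for Maoa. Penk, also lower at day 4, had a smaller difference then than at day 0, by 0.67 on the log2(RPKM + 1) scale. With the construct and in mock its means were 1.99 and 10.4 RPKM at day 4 and 25.5 and 159 RPKM at day 0. The added 1 RPKM therefore compresses its day 4 difference more. The mock libraries of day 0 stood apart in summed RPKM and in Mki67, as given above, and their part in these values was not tested.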

How the results depend on the processing

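Against mock, no named gene reversed under any of the alternatives run, and 131 of 167 named genes kept their call in all of them. The count of 5554 was 4792 to 5460 when single libraries were left out, and 3408 with all 33 transduced osteoclast libraries in the fit. Median-of-ratios scaling gave 2881 higher and 2704 lower. With the replicate block 5463 genes passed; it moved no count of calls by over 1.5 times, and of the named genes Junb and Srebf1 then passed. Against hIRF8WT the count was 3665 with all 33 libraries. Against hIRF8G388S it was 1090 with no filter on low values, 105 with all 33 libraries and 637 to 1591 when single libraries were left out. Median-of-ratios scaling turned the split there from 475 higher and 1163 lower into 885 and 807, and subtracting the length trend into 906 and 902. For the change between days the split became 3298 and 3296 with scaling, and 2646 and 2524 without the length trend. Bst2 reversed there, from 0.74 to -0.054 without the length trend. Apart from the libraries or genes that each alternative adds or removes, the cause was not tested. The length correction and the fit without hIRF8WT were chosen after seeing the data. Genes near 1 RPKM are limited by depth, which differed up to several-fold between libraries.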
